A study of Mus musculus with 32 samples.

Results

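The conjugating enzymes and carboxylesterases of mouse liver cells and colorectal tumor cells were measured with 102 array probes for 72 genes, of 55681 probes in all. The members were every probe whose annotated gene belonged to the UDP glucuronosyltransferase families Ugt1 to Ugt3, the sulfotransferase families Sult1 to Sult5, the glutathione S-transferase classes (Gsta, Gstm, Gstp, Gstt, Gstk, Gsto, Gstz and Mgst) or the carboxylesterase families Ces1 to Ces5. The rule itself used gene names and no measured value, though it was written with earlier results of these data known. The 32 samples formed 8 groups of 4, in which male Balb/c mice aged 6 to 8 weeks served as hosts. Control mice received PBS in the spleen and tumor-bearing mice received C26 cells, a syngeneic mouse colon carcinoma line, and 14 days later sinusoidal endothelial, Ito (stellate) and Kupffer cells were separated from the liver by collagenase, Percoll gradients and adherence. These gave the endothelial control (EC), Ito control (IC) and Kupffer control (KC) groups, and the matching tumor microenvironment (TME) groups ET, IT and KT. Tumor liver metastasis cells (TM) and colorectal cancer primary cells (TP) made up the other two groups. Both came from the mice with induced tumors, and the way these cells were isolated is not given in the sources used here. All values below are log2 intensities of the deposited, quantile-normalized table unless another scale is named.

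Conjugating enzymes attach a polar group to drugs, hormones, bilirubin or reactive electrophiles, so that transporters can carry the product into bile or urine. UDP glucuronosyltransferases use UDP-glucuronic acid, sulfotransferases use the sulfate donor PAPS, and glutathione S-transferases use glutathione, while carboxylesterases hydrolyse esters and amides, many of them drugs or lipids. In liver, hepatocytes are the main site of most Ces1, Ces2, Ces3, Ugt2b and Sult1 transcripts, whereas several glutathione S-transferases are also made in other cells.

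Several facts of the series bear on every value. EC, IC, KC and TM were labelled with Cy3 and ET, IT, KT and TP with Cy5, and each array carried a control and a TME sample of 1 cell type, or TM and TP, so dye and tumor exposure cannot be told apart. The first slide held the endothelial and Ito samples, and the second the Kupffer and tumor samples. The share of probes well above background ranged from 37.4% to 56.1% over the samples. On array 4 of the Ito cells, the Cy5 minus Cy3 differences ran against those of the other Ito arrays (r = -0.66 over 17105 probes with the mean of the other arrays), and array 4 of the Kupffer cells did likewise (r = -0.60). Over the 102 member probes, IT 4 lay a median of 0.43 from the mean of IT 1 to 3 and 0.13 from the mean of IC 1 to 3, and IC 4 lay 0.47 from its own group and 0.33 from TME. KC 4 lay 0.40 from the other KC samples and 0.16 from KT 1 to 3, and KT 4 lay 0.30 and 0.31 from the 2 groups. The dye differences of these 2 arrays thus ran against their labels, while KT 4 lay about equally far from both groups over the members, and results that rest on them are given with and without these 2 arrays. No sample was moved or relabelled.

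The cell labels were checked against marker genes. The Kupffer marker Clec4f was well above background in all 24 liver samples, with means of 12.81 in EC, 14.79 in IC and 15.51 in KC. Marco (15.15 in IC, 14.91 in KC) and Emr1 (13.03 in IC, 12.94 in KC) averaged more in IC. The other Kupffer markers on the array averaged more in KC than in IC. Lrat, by which Ito cells store retinol as esters, was well above background in 2 of 4 IC, 1 of 4 EC and 0 of 4 IT samples. It averaged 4.16 in IC and 3.47 in EC and was not called. Each of the 10 Ito markers was well above background in at least 1 IC sample. Of these markers 1 (Col3a1) was called lower in IC than in EC and none higher. The list median was -1.02, with Lrat and Rgs5 averaging higher in IC and all the others lower. The paper reports high purity of the fractions by immunostaining, a measure of protein. Albumin averaged 12.96 in EC, 15.98 in IC and 13.49 in KC. The summed level of the 14 hepatocyte markers lay between 15.29 and 15.55 in EC, between 17.47 and 19.01 in IC, and between 6.70 and 7.05 in TM on the log2 scale. Hepatocyte transcripts were therefore present in all liver fractions and highest in the fraction labelled Ito, and in these bulk samples more cells of a type and more RNA per cell cannot be told apart.

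Promoters of members with opposite patterns are shown first. Ces3b and Ces1c were high in liver fractions and at background in tumor cells, Ces1a, a close relative of Ces1c, was measured in tumor cells alone, and Gstp1 was measured in every group and highest in TM. The 250 bases before each RefSeq start (GRCm38.p6) are printed 5′ to 3′, with capitals for any match, on either strand, to TATAAA (the core promoter box), GTTAAT (HNF1 half-site), TGNACTTTG (HNF4), TGACNNNGC (antioxidant response element), GCGTG (xenobiotic response element core) or TGAGTCA (AP-1). A promoter was listed for 60 of the 72 genes.
Ces3b (chr8:105083505-105083754, plus strand): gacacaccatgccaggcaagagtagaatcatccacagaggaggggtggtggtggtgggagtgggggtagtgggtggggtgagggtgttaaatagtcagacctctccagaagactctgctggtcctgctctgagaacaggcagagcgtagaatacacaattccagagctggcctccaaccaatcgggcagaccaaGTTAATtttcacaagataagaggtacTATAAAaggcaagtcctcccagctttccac
Ces1c (chr8:93131284-93131533, minus strand): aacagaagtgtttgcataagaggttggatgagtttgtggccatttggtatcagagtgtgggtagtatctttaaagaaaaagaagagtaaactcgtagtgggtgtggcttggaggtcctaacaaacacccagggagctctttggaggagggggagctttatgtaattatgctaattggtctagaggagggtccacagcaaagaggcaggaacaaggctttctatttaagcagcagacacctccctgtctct
Ces1a (chr8:93048193-93048442, minus strand): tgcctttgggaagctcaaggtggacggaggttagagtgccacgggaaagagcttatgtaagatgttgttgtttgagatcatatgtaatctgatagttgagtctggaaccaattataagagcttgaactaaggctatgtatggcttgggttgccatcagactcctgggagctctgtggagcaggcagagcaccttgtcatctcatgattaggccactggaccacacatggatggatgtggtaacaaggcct
Gstp1 (chr19:4037913-4038162, minus strand): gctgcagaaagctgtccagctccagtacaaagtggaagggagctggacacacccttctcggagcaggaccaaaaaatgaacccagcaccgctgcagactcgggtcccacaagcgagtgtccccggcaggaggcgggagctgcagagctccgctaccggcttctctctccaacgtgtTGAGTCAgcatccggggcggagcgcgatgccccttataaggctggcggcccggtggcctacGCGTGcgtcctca

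Ces3b held TATAAA 30 bases and an HNF1 half-site 56 bases before the start, and Gstp1 held an AP-1 match 74 bases and a xenobiotic core 13 bases before it. The Ces1c and Ces1a windows held none of these strings. GTTAAT occurred in 12 of the 60 member promoters (20%) and in 6.43% of 32851 listed promoters, TGAGTCA in 6 (10%) against 4.46%, and GCGTG in 6 against 28.2%. TATAAA was found in 10 (16.7%) against 12.4%, TGACNNNGC in 3 (5%) against 10.2%, and TGNACTTTG in none against 1.19%. These matches describe letters, not bound sites.

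Probes for the genes the results turn on lay, in mm9, at chr8:107265289-107265348 (Ces2a), chr8:107362421-107362480 (Ces2b), chr8:107582236-107582295 (Ces3a) and chr8:107615484-107615543 (Ces3b) on the plus strand of chromosome 8, at chr8:95544137-95544196 (Ces1a) on its minus strand, and at chr10:75246560-75246619 (Gstt1) on the minus strand of chromosome 10. Some probes of neighbouring paralogs share most of their bases, so that their signals may not be separate. The Ces2b probe and 1 Ces2c probe overlapped over 34 bases, of which 31 were the same. A Gstp1 and a Gstp2 probe overlapped over 35 bases, of which 30 were the same. The probes of Ces1b and Ces1c overlapped over 55 bases, of which 49 were the same, and 30 of these bases are printed with differing bases in capitals.
Ces1b: atgaaatcttctCtgtattTgggATtccaT
Ces1c: atgaaatcttctTtgtattCgggGCtccaC

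Of the 102 probes, 21 were well above background in all 32 samples and 21 in none. The genes never detected numbered 11 of 72, among them Sult1b1, Sult1c1, Sult3a1, Ces1h, Ces4a and Ces5a. The remaining genes fell into visibly different patterns across the groups, as the map of group means shows.

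**Figure D1:**
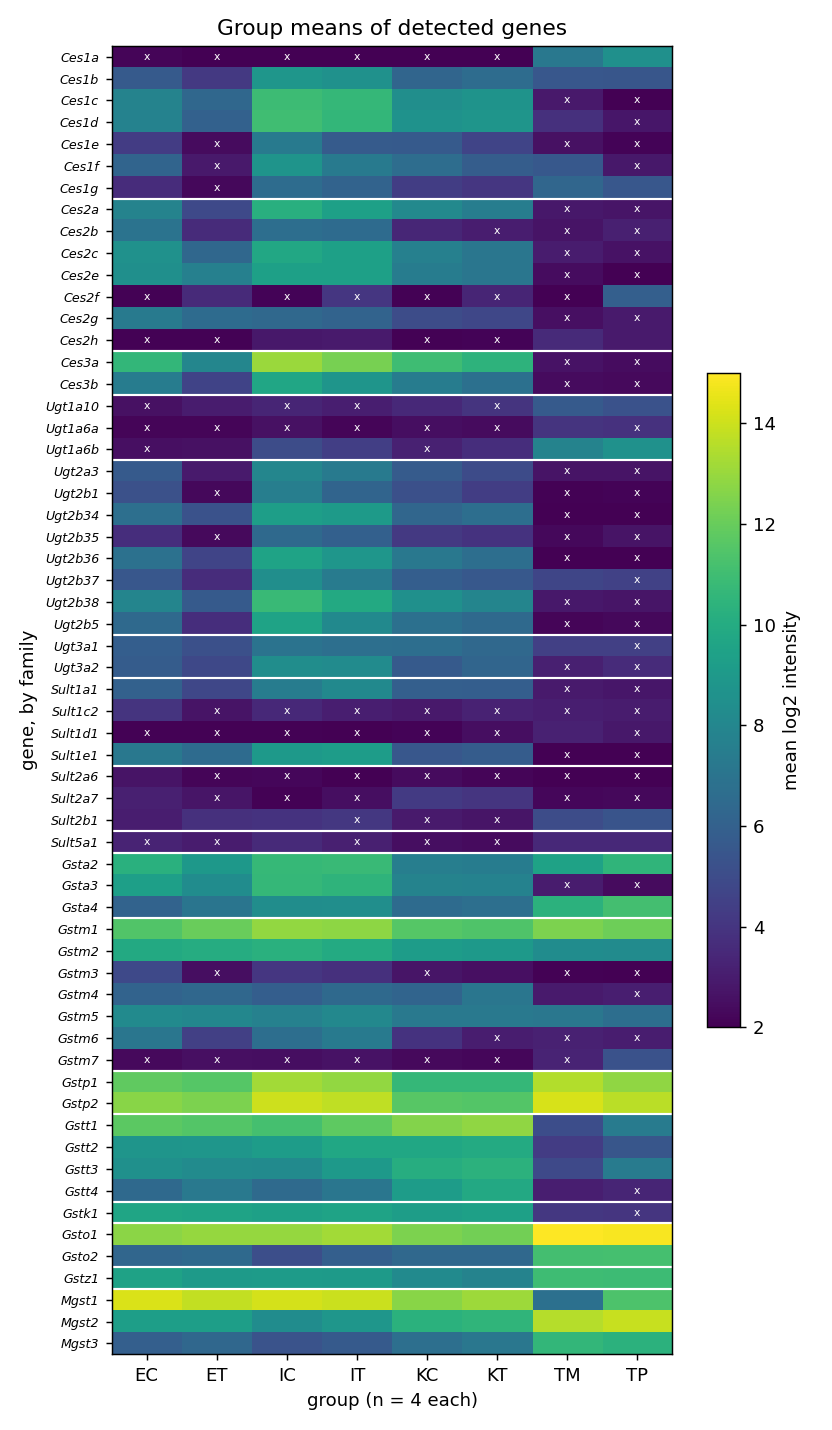
Mean log2 intensity (colour) of each detected gene (rows, by family, with white lines between families) in each group (columns, n = 4). A cross marks a group in which no sample was well above background. Ces3a ran from 13.07 in IC to 2.45 in TP, and Gsto1 was highest in TM and TP.

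In endothelial cells of the tumor-bearing liver, 3 of 7 Ces2 genes and both Ces3 genes were called lower, and 1 Ces2 gene, Ces2f, was called higher. The limma fit over all probes called 12 member probes lower and 1 higher in ET than in EC, where 1.14% of all probes were called (0.578% higher, 0.564% lower). The called genes that were lower numbered 10 of 72, and the median difference was -0.18 over members and 0.01 over all probes. Ces3a, an esterase of the hepatocyte endoplasmic reticulum that acts on lipids, read 10.95, 10.30, 10.35 and 10.93 in EC and 7.99, 8.31, 7.80 and 7.76 in ET. Every ET sample lay below every EC sample, and the difference was -2.66 ± 0.56 (SE, adjusted p = 0.0117). Its neighbour Ces3b read 7.71, 7.21, 7.25 and 7.74 in EC against 4.66, 5.16, 4.11 and 4.62 in ET, a difference of -2.84 ± 0.56 (SE, adjusted p = 0.00637).

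The Ces2 genes, whose products hydrolyse ester prodrugs in liver and intestine, included Ces2a, Ces2b and Ces2c among those called lower. Ces2b showed the largest difference of these, with 7.49, 6.38, 6.41 and 7.44 in EC and 3.65, 4.20, 3.12 and 3.48 in ET, or -3.32 ± 0.58 (SE, adjusted p = 0.00182). Ces2a differed by -2.96 ± 0.53 (SE, adjusted p = 0.0025) and Ces2c by -2.22 ± 0.46 (SE, adjusted p = 0.0103), and the other Ces2c probes were also called. Among these other Ces2c probes, 1 shares most of an overlapping stretch with the Ces2b probe, so its call and that of Ces2b may not be separate. No Ces1 gene was called, although their median difference was -1.50. Ces1c, for example, read 8.06, 7.63, 7.52 and 8.11 in EC and 5.96, 6.65, 6.23 and 6.49 in ET, groups that did not overlap, with -1.50 ± 0.55 (SE, adjusted p = 0.318).

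Among the glucuronosyltransferases, Ugt2a3 and Ugt2b36 were called lower in ET. Ugt2a3 read 5.61, 5.66, 5.60 and 5.84 in EC and 2.83, 4.15, 2.36 and 2.33 in ET, and differed by -2.76 ± 0.56 (SE, adjusted p = 0.00794). Ugt2b36 differed by -2.19 ± 0.56 (SE, adjusted p = 0.049), which was close to the threshold. Sult1a1, the phenol sulfotransferase, read 6.19, 5.98, 5.82 and 6.22 in EC and 5.15, 4.79, 4.75 and 4.45 in ET, a difference of -1.27 ± 0.32 (SE, adjusted p = 0.0471). The mu class genes Gstm6 and Gstm3 were lower by their most variable probes, with -2.61 ± 0.56 (SE, adjusted p = 0.0133) and -2.42 ± 0.47 (SE, adjusted p = 0.00573, at least 1.43-fold). Where no sample of the dimmer group was well above background, as for this Gstm3 probe in ET, the fold is a bound, the mean of the brighter group over the lowest signal well above background in the dimmer samples (or the probe's own signal where higher), on loess-normalized channels that stay open to dye bias. These calls depended on the probe, since a Gstm3 probe that was well above background in all 32 samples gave a difference of 0.36 and another Gstm6 probe gave 0.50, neither of which was called. At a stricter threshold, an adjusted p under 0.001 and a 4-fold difference, 1 member probe and 0.165% of all probes were called.

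Markers of other cell types are given beside these values. Of 14 hepatocyte markers, 3 were called lower in ET (Apoa2 -2.09, Ttr -1.88 and Apoh -1.64) and none higher, with a median of -0.63, while Alb differed by -0.40 and was not called. None of the 6 neutrophil markers was called, at a median of 2.93, and their summed level lay between 9.80 and 10.25 in EC and between 11.87 and 12.92 in ET. S100a8 differed by 3.27 (adjusted p = 0.059) and Camp by 2.82 (adjusted p = 0.0623). In the limma fit without replicate 4 of all 8 groups, S100a8 differed by 3.36 (adjusted p = 1.16e-05) and S100a9 by 3.29 (adjusted p = 9.07e-06). Ngp (2.81, adjusted p = 0.0114) and Camp (2.99, adjusted p = 8.79e-04) were then also called, and Ltf and Elane were not. The part of these cell types in the result was not tested. Leaving out replicate 1 of all 8 groups reduced the 13 calls to 2, leaving out replicate 3 to 4 and leaving out replicate 4 to 8. The estimate of spread was shared by all groups, so these falls cannot be assigned to the endothelial samples alone. The share of all probes called without a replicate was not computed, so these counts cannot be set against it. Without array 4 of the Ito and Kupffer cells only, 1 member was called higher and 16 lower (1.64% of all probes called).

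The same genes were then followed in Ito and Kupffer cells. With all samples, Ces2f was the only member called in either, higher in both. Of all probes 0.289% were called in Ito cells (0.269% higher, 0.0198% lower) and 0.436% in Kupffer cells (0.372% higher, 0.0647% lower). Ces3b read 10.002, 10.05, 10.02 and 8.73 in IC and 8.52, 8.21, 8.46 and 9.98 in IT, and 8.82, 8.67, 5.96 and 6.36 in KC and 5.91, 6.38, 6.18 and 8.80 in KT. In Ito cells both samples numbered 4 lay towards the other group. In Kupffer cells KT 4 lay with KC 1 and KC 2, and KC 3 as well as KC 4 lay with KT 1 to 3, so that the Kupffer values without array 4 still hold 1 such sample. Without array 4 of both cell types, 4 members were called higher and 4 lower in IT than in IC (7.66% of all probes called), and 1 higher and 2 lower in KT than in KC (3.85%). Ces3b then differed by -1.63 ± 0.44 (SE, adjusted p = 0.025) in Ito cells and by -1.66 ± 0.44 (SE, adjusted p = 0.0363) in Kupffer cells, and Ces1e by -2.55 ± 0.56 (SE, adjusted p = 0.0061) and -2.13 ± 0.56 (SE, adjusted p = 0.0347). Both were also lower in ET in that fit, which called 1.64% of all probes, at -2.84 ± 0.38 (SE, adjusted p = 1.08e-04) and -1.97 ± 0.48 (SE, adjusted p = 0.0365). In Ito cells the other calls without these arrays were Ugt2b1 and 1 Gstp2 probe lower and Ces2f higher. The Gstp2 probe of highest variance gave -0.57 ± 0.20 (SE, adjusted p = 0.0822) and was not called. Also called higher were Gsto2 at 1.92 ± 0.23 (SE, adjusted p = 1.78e-05), Mgst2 at 1.09 ± 0.27 (SE, adjusted p = 0.0149) and Sult1a1 at 1.39 ± 0.28 (SE, adjusted p = 0.00281). Sult1a1 was thus lower in endothelial cells with all samples and higher in Ito cells without these arrays, which are 2 different fits. Its other probe gave 1.32 ± 0.65 (SE, adjusted p = 0.258) in Ito cells without these arrays. That probe was not called there, nor in endothelial cells with all samples.

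**Figure D2:**
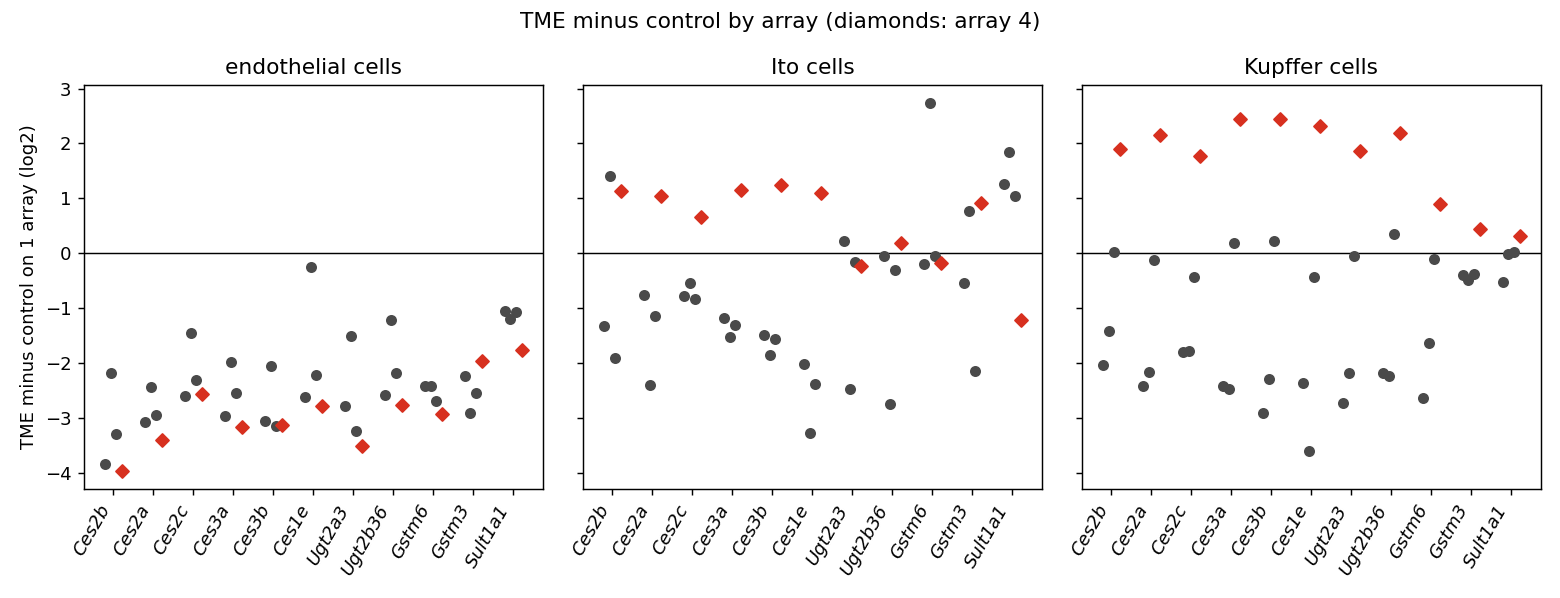
TME minus control difference (log2) on each of the 4 arrays for 11 genes in endothelial, Ito and Kupffer cells. Diamonds mark array 4, and in Kupffer cells these lie above 0 for all 11 genes. All endothelial points lie below 0. The genes are the 10 called lower in ET than in EC, and Ces1e, so this endothelial direction follows from the choice of genes.

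Whether the TME difference itself differed between cell types was tested with interaction terms. No member passed in any of the 3 pairs of cell types, where 0.111% (endothelial and Ito), 0.0808% (endothelial and Kupffer) and 0.00359% (Ito and Kupffer) of all probes were called. At an unadjusted p under 0.05, 13, 18 and 1 of the 102 member probes passed (12.7%, 17.6% and 0.98%), against 4.45%, 3.88% and 4.13% of all probes. The smallest adjusted p was 0.0502, for a Ces2c probe between endothelial and Ito cells. Without array 4 of the Ito and Kupffer cells 4 member probes passed in that pair. The share of all probes passing in that fit was not computed, so this count cannot be set against it.

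Ces2f stood apart from the rest of its family. It read 2.04, 2.09, 2.15 and 2.04 in EC and 3.39, 4.01, 3.86 and 2.99 in ET, and was higher in TME by 1.48 ± 0.21 (SE, adjusted p = 1.42e-04, at least 1.08-fold) in endothelial cells, 1.93 ± 0.21 (SE, adjusted p = 2.57e-06) in Ito cells and 1.31 ± 0.21 (SE, adjusted p = 0.00109) in Kupffer cells. TP read 6.12, 5.46, 5.67 and 6.57 and TM 2.11, 2.11, 2.01 and 1.82, a difference of 3.94 ± 0.21 (SE, adjusted p = 9.41e-13, at least 1.46-fold). All the higher groups carried Cy5 and all the lower groups Cy3. Only TP was well above background on all 4 arrays, ET on 1, and IT and KT on none, so in Ito and Kupffer cells neither group was measured above background and no fold is given. Within Cy5, TP exceeded KT by 2.59 ± 0.21 (SE, adjusted p = 5.53e-11, at least 1.52-fold).

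Ito and endothelial fractions, which shared dye and slide, differed widely in these genes. In controls 32 member probes were called higher and 1 lower in IC than in EC, where 9.89% of all probes were called (4.17% higher, 5.72% lower). In TME 39 were higher and none lower in IT than in ET, where 8.26% were called (3.48% higher, 4.78% lower). The Ugt2 family led in number, with 8 of 9 genes higher in each comparison. Ugt2b5 read 6.76, 6.11, 6.16 and 6.68 in EC and 9.74, 9.74, 9.70 and 9.07 in IC, a difference of 3.13 ± 0.77 (SE, adjusted p = 0.00806), and Ugt2b38 differed by 2.87 ± 0.63 (SE, adjusted p = 0.00312). All 4 IC samples lay above all 4 EC samples for both genes. Without array 4 of the Ito and Kupffer cells, 33 members were higher and 3 lower in IC (11.7% of all probes called). In IT 35 were then higher and none lower (8.63%). Without replicate 3 the call count between IC and EC was 16, and the share of all probes in that fit was not computed.

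Of 8 Ces1 genes, 3 were higher in IC and 6 in IT. Ces1d, which hydrolyses retinyl and triacylglycerol esters, differed by 3.26 ± 0.67 (SE, adjusted p = 0.00175) between controls and by 4.55 ± 0.67 (SE, adjusted p = 5.27e-05) in TME. Ces1c differed by 3.09 ± 0.55 (SE, adjusted p = 3.80e-04) and 4.32 ± 0.55 (SE, adjusted p = 6.77e-06), and Ces3a by 2.44 ± 0.56 (SE, adjusted p = 0.00486) and 4.38 ± 0.56 (SE, adjusted p = 7.44e-06). Ces2b was called in TME alone: its IC level of 6.70 ± 0.62 (SD, n = 4) lay near the EC level of 6.93 ± 0.62, and it differed by 2.91 ± 0.58 (SE, adjusted p = 0.0015) between IT and ET. Sult1e1, the estrogen sulfotransferase, was higher by 1.79 ± 0.32 (SE, adjusted p = 4.13e-04) and 2.61 ± 0.32 (SE, adjusted p = 4.29e-06).

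Glutathione S-transferases split in this comparison. Both pi class genes were higher in IC, with Gstp1 at 11.80, 11.79, 11.77 and 11.86 in EC and 13.37, 13.33, 13.23 and 12.81 in IC, or 1.38 ± 0.22 (SE, adjusted p = 1.09e-04), and Gsta4, which conjugates lipid aldehydes such as 4-hydroxynonenal, by 2.22 ± 0.43 (SE, adjusted p = 9.92e-04). None of the 4 theta class genes was called in either comparison. With all samples, Mgst2 was the only member called lower in IC, with a difference of -0.96 ± 0.31 (SE, adjusted p = 0.0448), and its IC 4 value lay within the EC range. Without array 4 of the Ito and Kupffer cells, Mgst2 differed by -1.35 ± 0.25 (SE, adjusted p = 8.30e-04). Gsto2, at -1.60 ± 0.22 (SE, adjusted p = 2.98e-05), and Mgst3, at -1.04 ± 0.32 (SE, adjusted p = 0.0345), were then also lower. Another Mgst3 probe gave -0.32 and was not called.

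Markers of several cell types differed alongside. Of 14 hepatocyte markers, 13 were higher in IC than in EC (median 2.70) and 14 in IT than in ET (median 3.72), and 5 of 6 erythroid markers were higher in each (medians 4.17 and 5.19). Between IC and EC, 4 of 8 Kupffer markers were higher (Clec4f, Csf1r, Marco and Cd68, list median 1.98), and 3 of 9 sinusoidal endothelial markers were lower (Clec4g, Kdr and Oit3, list median -0.98). For comparison, Ces1c differed by 3.09 and Alb by 3.02 between controls. Their part in these differences was not tested. At the stricter threshold 2 members and 1.24% of all probes were called between controls, 19 and 0.871% in TME, 0 and 0.0916% between IT and IC, and 0 and 0.111% between KT and KC.

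**Figure D3:**
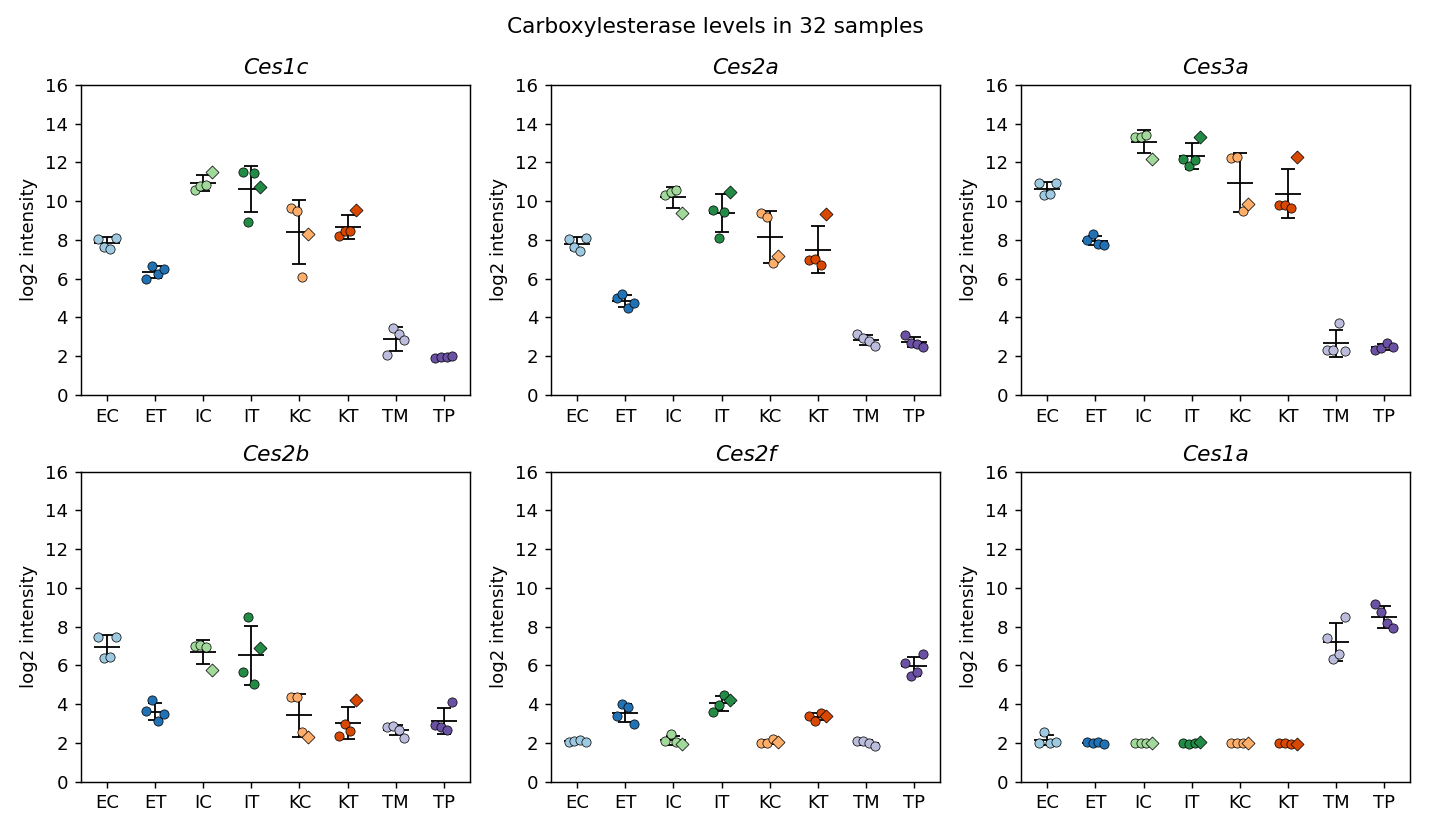
Log2 intensity of 6 carboxylesterases in each of the 32 samples by group, with mean and SD bars (n = 4), where diamonds are samples numbered 4 of the Ito and Kupffer groups. Ces1c, Ces2a and Ces3a peak in IC, Ces2f is highest in TP, and Ces1a is raised in TM and TP alone.

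Tumor cells were compared with Kupffer cells of the same dye and slide, TM with KC and TP with KT. In TM 21 member probes were called higher and 34 lower, where 39.4% of all probes were called (23.3% higher, 16.2% lower). In TP 20 were higher and 33 lower, where 43.6% were called (25.7% higher, 17.8% lower). Scaled to the 75th percentile instead, the splits were 30 higher and 34 lower in TM and 36 higher and 30 lower in TP. The share of all probes called under that scaling was not computed, so these splits cannot be set against it. Without array 4 of the Ito and Kupffer cells the counts were 21 higher and 37 lower in TM (38.2% of all probes called) and 21 higher and 31 lower in TP (41.7%). Of 15 carboxylesterase genes well above background in some liver sample, 9 were so in no tumor sample. The tumor samples are fewer than the liver samples. The share of all genes with this pattern was not computed, so the count cannot be set against it. Ces3a read 2.32, 2.30, 3.73 and 2.27 in TM and 12.23, 12.29, 9.48 and 9.83 in KC, a difference of -8.30 ± 0.56 (SE, adjusted p = 1.74e-12, at least 23.3-fold). Ces1c was at least 6.43-fold lower in TM and at least 6.2-fold lower in TP, and Ugt2b38 at least 5.2-fold and 3.17-fold.

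Ces1a ran the other way. It read 7.40, 6.35, 6.58 and 8.52 in TM and 9.16, 8.78, 8.18 and 7.93 in TP, and no liver sample was well above background. The difference from Kupffer cells was 5.22 ± 0.29 (SE, adjusted p = 2.68e-14, at least 3.45-fold) for TM and 6.55 ± 0.29 (SE, adjusted p = 2.62e-16, at least 6.91-fold) for TP. The Ugt1a cluster, whose transcripts join variable first exons to shared exons, was also higher in tumor cells. Ugt1a6b, which glucuronidates phenols, averaged 7.83 ± 1.17 (SD, n = 4) in TM and 3.19 ± 0.62 in KC, and differed by 4.64 ± 0.56 (SE, adjusted p = 9.90e-08, at least 4.2-fold). Since probes of the cluster may share exons, its 3 genes, called higher in TM (3 of 3) and in TP (2 of 3), are not counted as separate. Of the 9 Ugt2 genes, 7 were lower in TM and 6 in TP.

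Among glutathione S-transferases, the omega, zeta and pi genes and Mgst2 and Mgst3 were higher in both tumor groups, and the theta and kappa genes were lower. The mu class, the largest, held both directions, with 1 gene higher and 2 lower of 7 in TM and 2 higher and 2 lower in TP. Gstm4 differed by -3.29 ± 0.55 (SE, adjusted p = 1.34e-05) in TM and Gstm1 by 0.89 ± 0.25 (SE, adjusted p = 0.00456). Mgst1 was lower in TM, with a difference of -5.93 ± 1.24 (SE, adjusted p = 2.58e-04), and was not called in TP. Gsto1, which reduces dehydroascorbate and methylated arsenic, read 12.48, 12.43, 12.49 and 12.32 in KC and 15.18, 15.07, 14.99 and 14.86 in TM, a difference of 2.59 ± 0.25 (SE, adjusted p = 1.42e-09), and Gsto2 differed by 4.75 ± 0.45 (SE, adjusted p = 9.97e-10). In TP these differences from KT were 2.67 ± 0.25 (SE, adjusted p = 6.92e-10) and 4.77 ± 0.45 (SE, adjusted p = 7.91e-10). Gstz1, which isomerises maleylacetoacetate in tyrosine breakdown, differed by 2.78 ± 0.20 (SE, adjusted p = 4.34e-12), and Gstp1 by 2.84 ± 0.22 (SE, adjusted p = 2.58e-11).

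All 4 theta class genes were lower in both tumor groups. Gstt1 read 11.86, 11.87, 13.22 and 13.30 in KC and 6.88, 3.31, 1.91 and 8.14 in TM, or -7.51 ± 0.82 (SE, adjusted p = 1.66e-08). Gstt4 differed by -6.11 ± 0.73 (SE, adjusted p = 7.34e-08) in TM and -6.52 ± 0.73 (SE, adjusted p = 2.12e-08, at least 9.25-fold) in TP, and Gstk1, found in mitochondria and peroxisomes, by -5.09 ± 0.49 (SE, adjusted p = 1.81e-09) and -5.42 ± 0.49 (SE, adjusted p = 4.77e-10, at least 7.72-fold). Gsta3 was at least 4.05-fold lower in TM, whereas Gsta4 was higher by 3.79 ± 0.43 (SE, adjusted p = 3.41e-08), so that the alpha class held both directions. At the stricter threshold 42 members and 14.3% of all probes were called between TM and KC, 37 and 15.9% between TP and KT, and 1 and 0.408% between TP and TM. All 9 sinusoidal endothelial markers, all 8 Kupffer markers on the array and 13 of 14 hepatocyte markers were lower in TM than in KC.

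**Figure D4:**
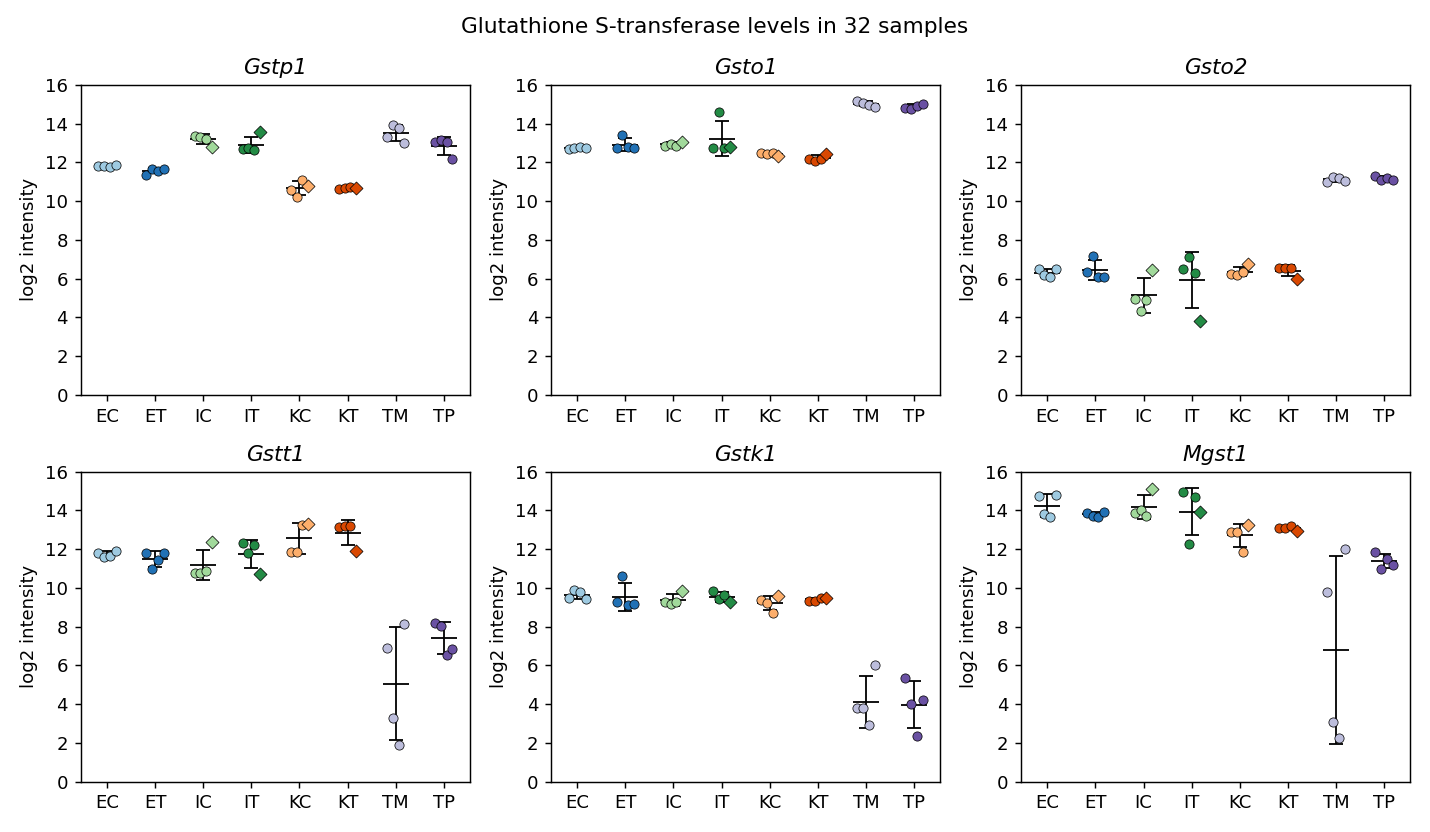
Log2 intensity of 6 glutathione S-transferases in each of the 32 samples by group, with mean and SD bars (n = 4), with diamonds as in the carboxylesterase plot. Gsto1 and Gsto2 are highest in TM and TP, Gstt1 and Gstk1 are lower there than in every liver group, and Mgst1 spreads widely within TM.

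TP and TM, which differed in dye, differed in few members, with 4 called higher in TP and none lower, where 3.01% of all probes were called (2.05% higher, 0.961% lower). At an unadjusted p under 0.05, 7 were higher and 6 lower (12.7% of members, against 16.4% of all probes), and the methods' t-test called 1 after adjustment. The tumor arrays did not run alike. Over all probes detected in every sample, TP minus TM differences on arrays 1 and 4 correlated at -0.20 and -0.07 with the mean of the other tumor arrays. On arrays 2 and 3 this correlation was 0.64. Mgst1, a membrane enzyme that detoxifies lipid peroxides, read 9.79, 3.07, 2.25 and 12.01 in TM and 11.84, 10.98, 11.48 and 11.20 in TP, and differed by 4.59 ± 1.24 (SE, adjusted p = 0.0389). Without array 4 of the Ito and Kupffer cells the Mgst1 difference was 4.59 ± 1.33 (SE, adjusted p = 0.0665) and was not called. TM 4 lay above every TP sample, so the groups overlapped, and TM 2 and TM 3 lay lowest. Gstt1 followed this order within TM, and its difference of 2.36 ± 0.82 (SE, adjusted p = 0.124) was not called. Ces1a differed by 1.30 ± 0.29 (SE, adjusted p = 0.0107) with overlapping groups, and Gstm7 by 1.99 ± 0.42 (SE, adjusted p = 0.00873, at least 1.16-fold), with 1 of 4 TP samples and no TM sample well above background. Without replicate 2 or replicate 3, 1 member was called, and without replicate 4 there were 7.

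Other genes of the pathway were read from lists of cofactor supply and other phase 2 genes (22 genes), efflux transporters (5) and regulators (12). Between TME and control, Acnat2, of the acyl-CoA amino acid N-acyltransferases, was the one gene called (2.87 in Ito and 3.65 in Kupffer cells), and no transporter or regulator was called. In TM against KC, 9 cofactor and phase 2 genes were higher and 6 lower, where 23.3% of all probes were higher and 16.2% lower. Ggt1, which cleaves glutathione conjugates, was higher by 4.97, Ephx1, the microsomal epoxide hydrolase, by 3.73, and the PAPS synthase Papss1 by 2.51, while Papss2 differed by -4.81 and the arylacetamide deacetylase Aadac by -5.11. Of the efflux pumps Abcc4 was higher (2.81) and Abcg2 (-6.19), Abcc3 (-5.63), Abcc2 (-1.78) and Abcc1 (-0.68) were lower. No regulator was higher and 8 of 12 were lower, among them the bile acid receptor Nr1h4 (-4.31), the xenobiotic receptor Nr1i3 (-2.57) and Hnf4a (-4.53). In IC against EC, 7 cofactor and phase 2 genes were higher and 1 lower, where 4.17% of all probes were higher and 5.72% lower. Nqo1 (1.74) and Gclm (2.00), of the antioxidant response, were among the higher. Of the transporters 2 were higher and none lower. Of the regulators 2 were higher and 1 was lower, the aryl hydrocarbon receptor Ahr (-1.52).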

How the data were processed

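RNA of 32 mouse samples was hybridised to 16 two-colour Agilent arrays on 2 slides. Per the labels and methods, the authors extracted spot intensities with Feature Extraction and deposited a table of quantile-normalized intensity values, 1 column per channel, on a linear scale. The scanner files carried the mm9 build, and coordinates of probes refer to it. The table ranked probes like the scanner signals (lowest rank correlation 0.9996), and 0 spots were saturated. Each channel was treated as 1 sample. Log2 values were fitted with limma 3.58.1 in R 4.3.3 (lmFit and eBayes, 8 groups), p-values were adjusted by Benjamini-Hochberg over 55681 probes, and an adjusted p below 0.05 made a call, whatever the fold. The probe of highest variance stood for a gene. Well above background is the scanner's own flag. The scripts were tested on simulated data.

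Named genes were those called between TME and control or TP and TM, the 10 largest differences in each comparison within a dye and slide (of called genes detected in every sample of the brighter group), and the 10 highest levels in liver and in tumor samples. The members, lists and tests were chosen with earlier results of these data known. Alternatives covered other background corrections and normalizations, a detection filter, blocks, the methods' t-test, a stricter threshold, other probes and leaving out each replicate. The number of arrays limits the precision. The methods name 4 biological replicates per group; samples on 1 array share its technical error.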

Additional observations from a re-analysis of the deposited data

Results flagged for a closer look

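Within groups of 4 in which every sample was well above background, 227 combinations of a named gene and a group were examined, and in 42 of them 1 sample lay far from the other samples of its group by Dixon's ratio. Chance alone gives about 1 in 20. In IC 4 this held for 15 genes, with log2 intensities of Ces1b (9.52, others 8.56 to 8.60), Ces1e (6.22, others 7.69 to 7.78), Ces1f (7.25, others 9.17 to 9.36), Ces2b (5.77, others 6.95 to 7.07), Ces3a (12.17, others 13.32 to 13.44), Ces3b (8.73, others 10 to 10.05), Gsta2 (10.36, others 10.78 to 10.82), Gstk1 (9.84, others 9.18 to 9.28), Gstt1 (12.35, others 10.74 to 10.86), Gstt2 (10.38, others 8.67 to 8.89), Gstt3 (9.29, others 7.79 to 8), Gstt4 (8.78, others 5.53 to 5.80), Mgst2 (9.51, others 7.84 to 8.10), Ugt2b37 (7.75, others 8.58 to 8.74), Ugt2b5 (9.07, others 9.70 to 9.74). In KT 4 this held for 13 genes, with log2 intensities of Ces1d (9.82, others 8.40 to 8.53), Ces2a (9.31, others 6.71 to 7.03), Ces3a (12.29, others 9.67 to 9.81), Ces3b (8.80, others 5.91 to 6.38), Gsto2 (5.97, others 6.53 to 6.58), Gstt1 (11.88, others 13.14 to 13.19), Gstt2 (9.17, others 10.18 to 10.28), Gstt3 (9.57, others 10.55 to 10.65), Gstt4 (8.71, others 10.21 to 10.30), Ugt2b34 (8.45, others 5.89 to 6.25), Ugt2b36 (8.35, others 6.09 to 6.27), Ugt2b38 (9.80, others 7.26 to 7.37), Ugt2b5 (8.51, others 5.63 to 5.84). In ET 2 this held for 4 genes, with log2 intensities of Gstk1 (10.60, others 9.10 to 9.25), Gstm1 (12.94, others 11.70 to 11.82), Gsto1 (13.40, others 12.74 to 12.77), Ugt2b34 (7.26, others 4.38 to 4.77). In IT 2 this held for 4 genes, with log2 intensities of Gstm6 (9.81, others 6.31 to 6.62), Gsto1 (14.59, others 12.73 to 12.81), Ugt2a3 (5.65, others 7.80 to 7.92), Ugt2b36 (6.94, others 9.24 to 9.59). In IT 4 this held for 2 genes, with log2 intensities of Gstp1 (13.55, others 12.63 to 12.73), Gstp2 (14.28, others 13.54 to 13.60). In TP 4 this held for 2 genes, with log2 intensities of Gstp1 (12.17, others 13.04 to 13.16), Gstp2 (13.18, others 13.74 to 13.86). In KC 3 this held for 2 genes, with log2 intensities of Gstz1 (8.83, others 7.95 to 8.05), Mgst2 (9.47, others 10.55 to 10.65). 

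IC 4 and KT 4 together held 28 of the 42, and both lie on the arrays whose dye differences ran against the others of their cell type. The cause was not tested.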

How the results depend on the processing

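With the scanner signals quantile normalized, every called difference of a named gene kept its direction and its call, and over all 2064 recomputed differences of named genes 1891 kept both, 165 kept the direction alone and 8 reversed. The reversals came from other probes of the gene: Ces2e gave -0.0429 between IT and ET and 0.13 between TP and KT, Gstm3 0.36 between ET and EC, Gstm6 0.50 and 0.0948 between ET and EC and -0.23 between IT and ET, Gstm7 -0.25 between TP and TM, and Ugt3a2 0.71 between TP and KT. The cause was not tested.

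Counts of called members moved by over 1.5 times as follows. Shares of all probes are given above for the main fit, the stricter threshold and the fit without array 4 of the Ito and Kupffer cells. They were not computed for the other alternatives, so those counts cannot be set against them. Between ET and EC (13), the fit to the 2 groups gave 31, the methods' t-test 24 and the stricter threshold (adjusted p under 0.001 and 4-fold) 1. Between IT and IC (1), the t-test gave 2, the stricter threshold 0 and the fit without array 4 of the Ito and Kupffer cells 8. Between KT and KC (1), normexp with quantile or with loess gave 0, the stricter threshold 0 and the fit without these arrays 3. Between TP and TM (4), scaling to the 75th percentile gave 2, the 2 groups alone 1, the t-test 1 and the stricter threshold 1. The stricter threshold gave 2 between IC and EC (33) and 19 between IT and ET (39). For a change that differs between endothelial and Ito cells (0), the scanner signals gave 1, normexp with loess 2, the detection filter 1, the array as a random block 1, the replicate number as a fixed block 1 and the fit without array 4 of Ito and Kupffer cells 4, and between Ito and Kupffer cells (0) the last gave 1. The choice of leaving out array 4, and that of leaving out TP 4, was made after seeing the data.

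Leaving out each replicate gave 2 to 11 for ET and EC, 1 to 11 for IT and IC, 0 to 2 for KT and KC, 1 to 7 for TP and TM, 16 to 32 for IC and EC, 29 to 38 for IT and ET, 52 to 56 for TM and KC, 47 to 52 for TP and KT, 0 to 2 for the change between endothelial and Ito cells, and 0 for the other two. The share of all probes called without a replicate was not computed. Control and TME samples of 1 number shared an array. Their deviations from the group means correlated at 0.40, 0.34, 0.05 and 0.19 on the endothelial arrays, where EC 3 correlated more with ET 2 (0.20), and at -0.64 to 0.23 on the other arrays. Not every pair was thus over 0.1, and the replicate block gave 11 calls between ET and EC as a fixed and 14 as a random block. A bound on the fold could be given only where no sample of the dimmer group was well above background. Other differences at or near background are uncertain in size, and dye stays confounded with TME.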
